A study of Homo sapiens with 6 samples.

Results

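The integrin and laminin genes of Kelly cells were compared between cells given a control siRNA and cells given an siRNA against METTL3. Members were chosen by symbol: names beginning with ITGA or ITGB, without the binding proteins (names with BP) and ITGBL1, and the laminin chain genes LAMA, LAMB and LAMC followed by a single digit. This rule gave 38 of the 19923 protein-coding genes in the tables, 26 integrins and 12 laminins. It left out 4 names that begin with ITGA or ITGB.

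Kelly is an established human neuroblastoma line, which the labels call MYCN-amplified and of WT genotype. All 6 libraries came from it. The siControl group (3 libraries) received control siRNA and the siMETTL3 group (3 libraries) received siRNA against METTL3, the catalytic subunit of the complex that methylates adenosines in mRNA (N6-methyladenosine, m6A). Transfection was transient, RNA was taken after 72 hours and poly(A) RNA was sequenced. The labels do not say whether 1 or several siRNAs were used, or whether the replicates were separate cultures, so every p-value measures only the spread between these libraries. METTL3 itself stood at 53.5, 52.8 and 56.2 CPM (read counts scaled to a common library size) in siControl and at 32.99, 31.8 and 34.3 CPM in siMETTL3. Its log2 fold change was -0.71 (SE 0.070, edgeR quasi-likelihood test, FDR 4.68e-06). METTL3 shares 7.9% of its span with TOX4.

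Total counts per library lay between 15430000 and 21565013, and between 17132 and 17476 genes had a count. All 12 markers of neuroblastoma cells could be tested, and 6 were higher and 3 lower in siMETTL3. Their summed level, most of it MYCN, DBH and CHGA, was 6608 to 7048 CPM in siControl and 9182 to 9749 CPM in siMETTL3. TH, the rate-limiting enzyme of catecholamine synthesis, was higher, at 182 against 520.3 CPM (1.52 in log2, edgeR FDR 1.89e-07). ISL1, a transcription factor of sympathetic neurons, was lower, at 104 against 45.5 CPM (-1.18 in log2, edgeR FDR 6.06e-08). Of the 12 leukocyte markers, 10 stayed under 1 CPM in every library, and CD3D and MS4A1 were at 0 in all of them. Nearly all of the leukocyte markers' summed level, 70.8 to 76.9 CPM in siControl and 50.7 to 56.0 CPM in siMETTL3, was CSF1R, which fell (-0.49, edgeR FDR 9.9e-05). The summed endothelial markers lay between 17.3 and 22.7 CPM in siControl and between 39.6 and 44.1 CPM in siMETTL3, and EGFL7 held most of that rise (11.9 CPM against 30.8 CPM). Among the 7 endothelial markers, 6 could be tested and 2 were called, EGFL7 and VWF (4.66 against 7.54 CPM, 0.68, edgeR FDR 0.00592), both higher. The other 4 tested ones were not called, and CDH5, with at most 4 reads in any library, could not be tested. The summed Schwann cell markers were 8.35 to 9.01 CPM against 12.3 to 12.4 CPM, and the fibroblast markers, mostly PDGFRB and TWIST1, 222.7 to 223.8 CPM against 192.9 to 206.1 CPM. The epithelial markers summed to 7.57 to 8.07 CPM against 8.57 to 10.4 CPM. The part of these markers in the results below was not tested.

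Integrins are cell surface receptors made of an alpha and a beta subunit. They bind proteins of the extracellular matrix, or counter-receptors on other cells, and couple them through talin and kindlin to the actin cytoskeleton. The pairing of subunits sets the ligand: some alpha subunits bind collagens, some laminins, and some the RGD tripeptide of fibronectin and vitronectin. Laminins are trimers of an alpha, a beta and a gamma chain and form the sheet of basement membranes on which integrins and dystroglycan hold cells. In neural crest derivatives, from which neuroblastoma arises, both families are known for their part in migration and in the outgrowth of neurites.

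The 10 members that passed the test carry the pentamer GGACT, the best known form of the sequence context in which METTL3 methylates adenosine, in their canonical transcripts. So do all 35 tested members and 91.3% of the tested genes with a transcript, so carrying it does not set the 10 apart. The site nearest the stop codon is shown for each, because m6A is known to lie most often around stop codons and because the knockdown targets its writer. Sequences are from GENCODE release 44 (GRCh38), on the sense strand, with 10 bases on each side and the motif in capitals. These libraries measured RNA abundance, not methylation, so a match is a description of the sequence. The members that were lower in siMETTL3 come first.
ITGAV: tcattactgtGGACTgagactttta
ITGB1: ttcatgccagGGACTgacaaaagac
ITGB8: ttatccctatGGACTtagtctgatt
ITGA1: gcacaattctGGACTgcaatacatg
LAMA1: ggatgccattGGACTagagcttgtg
LAMA4: gagttgaacaGGACTtaaacgaatc
LAMB1: agaaagccatGGACTtggaccaaga
The members that were higher follow.
ITGA11: ccaagcaagaGGACTggcaggtccc
ITGA2B: ctctcaaggtGGACTgggggctgcc
ITGA8: cattatccagGGACTcacatctgct
Of these sites, those of ITGB1, ITGB8, LAMA4 and ITGA8 lay after the stop codon, by 181, 1931, 118 and 839 bases. The other 6 lay in the coding sequence, between 159 bases (ITGA11) and 1026 bases (LAMB1) before its end.

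At a false discovery rate (FDR) of 0.05, 10 of the 35 members that could be tested differed between the groups: 7 were lower and 3 were higher in siMETTL3. That is 28.6% of the tested members, where 37.8% of all 15311 tested genes were called (19.2% lower and 18.6% higher), so the members were called no more often than other genes. ITGAM, ITGAX and ITGB6 failed the filter on low counts, with 4 to 14, 2 to 3 and 0 to 10 reads per library. The lower members were ITGAV, ITGB1, ITGB8, ITGA1, LAMA1, LAMB1 and LAMA4, and the higher ones were ITGA11, ITGA2B and ITGA8. The median log2 fold change of the tested members was 0.059, against -0.0021 for all tested genes. In 16 of the 35 members the values of the groups did not overlap, as they did not in 49.9% of all tested genes. In these bulk libraries, fewer cells of a kind and less RNA per cell cannot be told apart.

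The calls were also counted by the level of the gene. Of the 16 members at 10 CPM or more in siControl, 8 were called, 7 lower and only ITGA11 higher. This is 50.0%, beside 43.1% of the 11249 tested genes at that level. Of the 22 members under 10 CPM, 19 could be tested and 2 were called, ITGA2B and ITGA8, both higher. This is 10.5%, beside 23.1% of the 4062 tested genes at that level. The shares lower and higher over all genes were not counted at either level, so the directions of these calls have no baseline here. Together the 38 members took 0.155%, 0.159% and 0.151% of the counts in siControl and close to 0.134% in each siMETTL3 library.

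**Figure D1:**
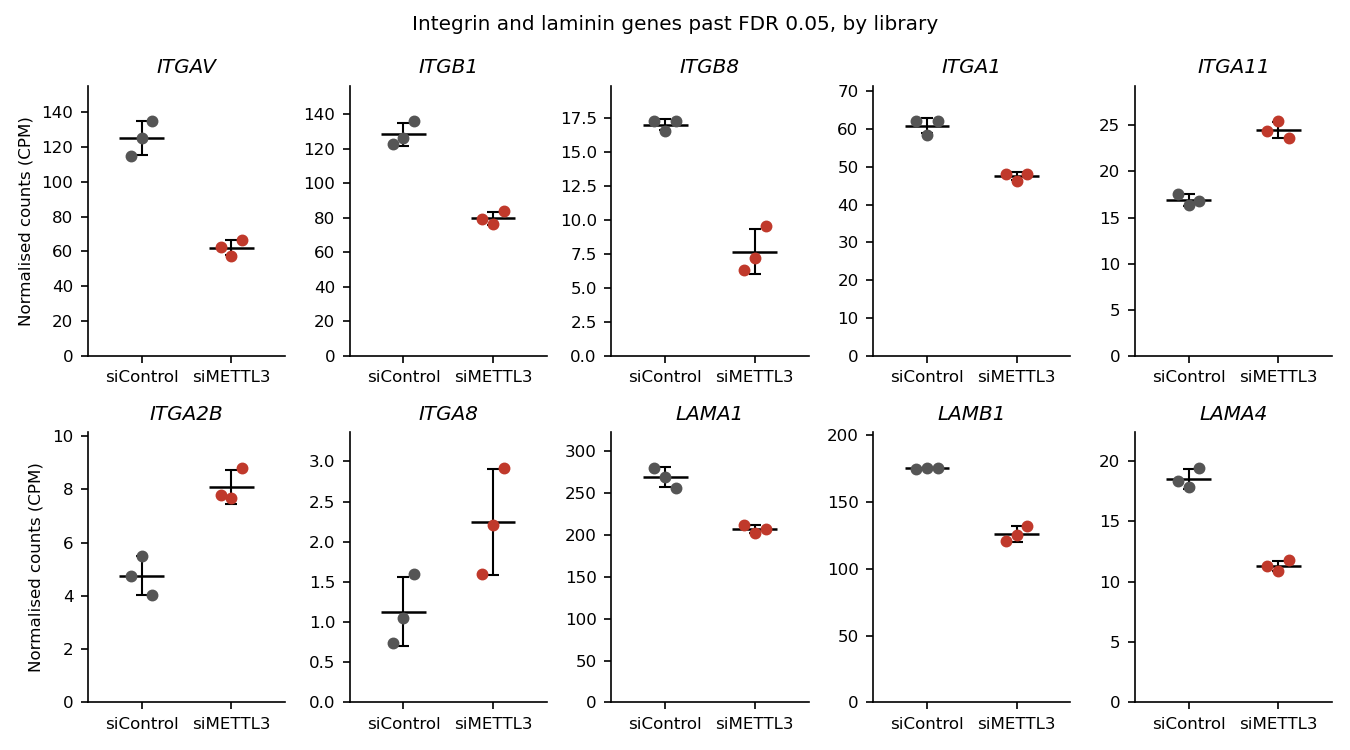
CPM of the 10 called members in each of the 6 libraries, 1 panel per gene with an axis from 0, points for libraries and bars for group means with their SD (n = 3). In every panel the siControl and siMETTL3 points lie apart, and ITGA8 is the gene in which they come closest (1.593 against 1.604 CPM).

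Of the integrins at 10 CPM or more in siControl, ITGB8, ITGAV and ITGB1 had the largest changes. ITGAV encodes the alpha subunit that pairs with most RGD-binding beta subunits and lies at chr2:186590056-186680901 on the plus strand of GRCh38. It stood at 115, 125 and 135 CPM in siControl and at 62.6, 57.5 and 66.4 CPM in siMETTL3. The groups were far apart, with the highest siMETTL3 library below the lowest siControl library, and the fold change was -1.01 on the log2 scale (SE 0.073, 95% interval -1.16 to -0.85, edgeR FDR 3.4e-07), or 49.8% of the control level.

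ITGB8, at chr7:20330702-20415754 on the plus strand, encodes a beta subunit known only as a partner of the ITGAV product, with which it releases active TGF-beta from its latent complex. It was at 17.2, 16.5 and 17.3 CPM in siControl and at 6.32, 7.17 and 9.54 CPM in siMETTL3. The siControl libraries were nearly level, the siMETTL3 libraries spread more, and the groups did not overlap. The log2 fold change was -1.15 (SE 0.14, 95% interval -1.45 to -0.85, edgeR FDR 3.19e-05), the largest fall among the tested members.

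ITGB1, at chr10:32900318-33005792 on the minus strand, encodes the beta subunit shared by the collagen receptors, most laminin receptors and the main fibronectin receptor. Its values were 123, 126 and 136 CPM in siControl and 79.1, 76.5 and 83.8 CPM in siMETTL3. All siMETTL3 libraries lay below all siControl libraries, and the log2 fold change was -0.69 (SE 0.062, 95% interval -0.82 to -0.55, edgeR FDR 2.56e-06), or 62.1% of control. In GENCODE release 44 a divergent transcript, ITGB1-DT, covers 44.9% of the ITGB1 span, and a long non-coding RNA covers 43.5% of the ITGAV span. ITGB8-AS1 covers 1.27% of ITGB8, and LAMA4-AS1 covers 12.8% of LAMA4. Strand was not used in counting, so reads of these RNAs cannot be told apart from those of the genes.

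ITGB5, which encodes another partner of the ITGAV product and a vitronectin receptor subunit, did not pass the test. It stood at 226, 250.1 and 214 CPM in siControl and at 242, 241 and 237 CPM in siMETTL3, with overlapping groups. The 95% interval of its log2 fold change ran from -0.07 to 0.19 (edgeR FDR 0.49), which excludes a fall of the size seen in ITGAV, ITGB1 or ITGB8. Within a library, ITGAV counted 0.508, 0.5 and 0.629 reads per ITGB5 read in siControl and 0.259, 0.239 and 0.28 in siMETTL3. The ITGB8 to ITGB5 ratio was 0.0762, 0.066 and 0.0805 against 0.0261, 0.0298 and 0.0402. In both ratios the groups lay apart. These ratios were chosen after the values had been seen and carry no test. ITGB3, the subunit that forms the classic vitronectin receptor with the ITGAV product, was low (1.09 against 1.59 CPM, log2 fold change 0.54, edgeR FDR 0.196). Of its span, 99.9% lies within AC068234.1, a second gene of the table, so its reads are counted for both.

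Among the other alpha subunits that bind RGD, ITGA2B and ITGA8 were higher. ITGA2B encodes the alpha subunit of the platelet fibrinogen receptor and lies at chr17:44372180-44389649 on the minus strand. It stood at 4.73, 5.5 and 4.05 CPM in siControl and at 7.78, 7.67 and 8.81 CPM in siMETTL3. The groups did not overlap, and the log2 fold change was 0.75 (SE 0.16, edgeR FDR 0.00188). ITGB3, its usual partner, was not called. The 95% interval of the ITGB3 log2 fold change, -0.13 to 1.21 from 16 to 38 reads per library, contains the ITGA2B value. A difference between the chains is therefore not shown.

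ITGA8, at chr10:15513954-15719922 on the minus strand, encodes the receptor subunit for nephronectin, a ligand in kidney development. It had 0.742, 1.05 and 1.593 CPM in siControl and 1.604, 2.21 and 2.92 CPM in siMETTL3, from only 16 to 60 reads per library. The highest siControl and the lowest siMETTL3 library were almost equal, and the log2 fold change was 1.03 (SE 0.34, edgeR FDR 0.0277). The call was lost without siControl 1 (0.79, FDR 0.0796), siControl 2 (1.00, FDR 0.0856), siMETTL3 2 (1.04, FDR 0.0739) or siMETTL3 3 (0.80, FDR 0.139). ITGA5, the alpha subunit of the main fibronectin receptor, was at 2.64, 2.25 and 1.33 CPM in siControl and at 3.30, 2.76 and 3.94 CPM in siMETTL3. The groups did not overlap but the test was not passed (log2 fold change 0.65, edgeR FDR 0.0654). Without siControl 1 it was (0.86, edgeR FDR 0.0232). The whole ITGA5 span is covered by the antisense gene GPR84-AS1.

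Of the 4 collagen receptor subunits, ITGA11 was higher, ITGA1 was lower and the other 2 were not called. ITGA11, at chr15:68296532-68432163 on the minus strand, encodes a receptor subunit for fibrillar collagen and was higher in siMETTL3. Its values were 17.6, 16.4 and 16.8 CPM in siControl and 24.4, 25.4 and 23.7 CPM in siMETTL3. The groups were clearly separate, with a log2 fold change of 0.53 (SE 0.088, edgeR FDR 0.000372), or 145% of control.

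ITGA1, the subunit of a receptor for basement membrane collagen, lies at chr5:52787916-52959209 on the plus strand. It stood at 62.0, 58.5 and 62.1 CPM in siControl and at 48.1, 46.3 and 48.1 CPM in siMETTL3, and the groups did not overlap (log2 fold change -0.36, SE 0.063, edgeR FDR 0.000612). PELO, which encodes a ribosome rescue factor, lies whole within the ITGA1 span at chr5:52787916-52804044, and its reads are counted for both genes. PELO counts equalled 54% of ITGA1 counts. With them subtracted, a step added after the data had been seen, ITGA1 stood at 30.7, 28.9 and 30.6 CPM against 20.3, 19.1 and 20.4 CPM, and the log2 fold change was -0.59 (SE 0.083, edgeR FDR 9.51e-05). PELO itself was not called (-0.16, edgeR FDR 0.124). Both genes start at the same base on the same strand and introns were counted, so PELO counts can hold ITGA1 reads. The subtracted ITGA1 values and the PELO change are therefore approximate.

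Within a library the ITGA11 to ITGA1 ratio was 0.283, 0.28 and 0.271 in siControl and 0.508, 0.55 and 0.492 in siMETTL3, again chosen after the values had been seen. The collagen receptor subunits that were not called were low: ITGA2 averaged 1.01 against 1.02 CPM and ITGA10 averaged 2.20 against 2.43 CPM. Neither was called (edgeR FDR 0.998 and 0.695). ITGA10 rested on siControl 3, which stood at 3.78 CPM beside 1.25 and 1.55 CPM. Without that library its log2 fold change was 0.80 (edgeR FDR 0.0309).

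**Figure D2:**
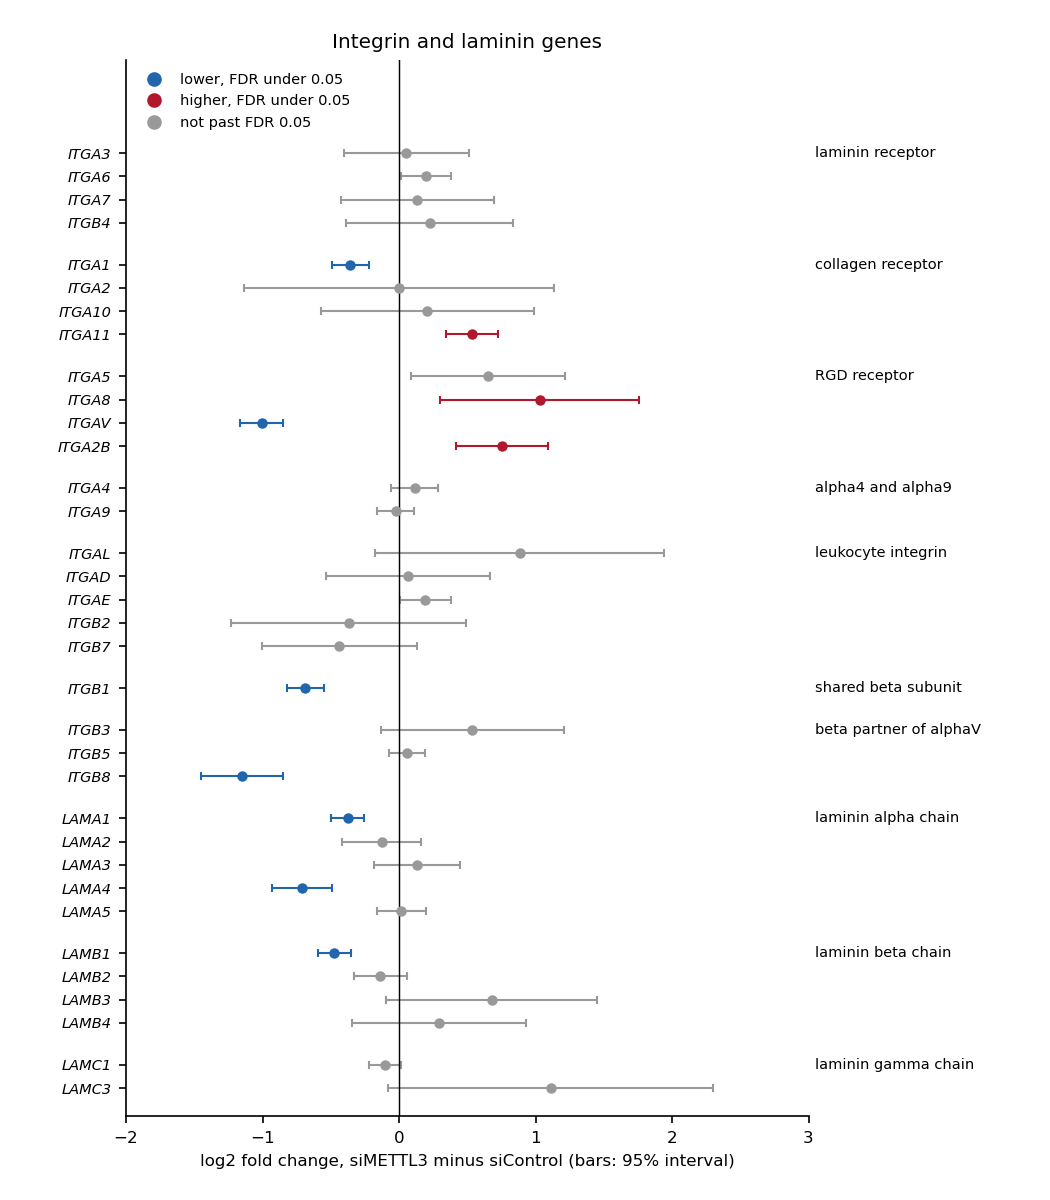
Log2 fold change (siMETTL3 minus siControl) of the tested members reported here with 95% intervals, grouped by role, on a linear axis. Blue and red points passed FDR 0.05 (7 lower, 3 higher), and the intervals widen for the members with few reads, such as LAMC3 and ITGA2.

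None of the 4 subunits grouped here as laminin receptors, ITGA3, ITGA6, ITGA7 and ITGB4, was called. ITGA6, the most abundant of this group, was at 21.8, 23.6 and 24.2 CPM in siControl and at 27.1, 27.2 and 25.5 CPM in siMETTL3. The groups did not overlap, yet the test was not passed (log2 fold change 0.20, 95% interval 0.02 to 0.38, edgeR FDR 0.0785). It passed without siControl 3 (0.23, edgeR FDR 0.0493). ITGA3 (4.16 against 4.36 CPM) and ITGA7 (1.63 against 1.80 CPM), which bind laminins of epithelia and muscle, and ITGB4 (1.62 against 1.92 CPM), the hemidesmosome partner of ITGA6, had FDR values between 0.573 and 0.87.

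ITGA4 and ITGA9, related subunits that bind fibronectin splice variants, VCAM1 and tenascin, were well measured and not called. ITGA9 averaged 64.7 against 63.7 CPM, and the 95% interval of its log2 fold change ran from -0.16 to 0.11 (edgeR FDR 0.813). ITGA4 averaged 32.9 against 35.6 CPM (0.11, edgeR FDR 0.289). In both the groups overlapped.

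None of the 7 subunits known from leukocytes was called, and 2 of them (ITGAM and ITGAX) could not be tested. ITGAE, which in T cells binds E-cadherin, was the abundant one at 30.5 against 34.98 CPM (0.19, edgeR FDR 0.101). HASPIN lies within ITGAE and its counts equalled 32.1% of those of ITGAE. With them subtracted the means were 20.9 and 23.7 CPM (0.18, edgeR FDR 0.15). HASPIN counts can hold ITGAE reads too, so these means are approximate. ITGAL, ITGAD, ITGB2 and ITGB7 averaged between 0.457 and 2.38 CPM in either group. ITGB7 was at 2.38 against 1.76 CPM (-0.44, edgeR FDR 0.215) and shares 23.9% of its span with ZNF740, which was lower in siMETTL3 (-0.64, edgeR FDR 1.03e-05).

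Of the 12 laminin chains, all could be tested, 3 were lower and none was higher (25% called, against 37.8% of all tested genes). LAMA1 encodes the alpha chain of the laminin of early embryonic basement membranes and lies at chr18:6941742-7117797 on the minus strand. It had the highest CPM of all members in siControl, at 280.4, 269 and 257 CPM in siControl and at 211, 203 and 207 CPM in siMETTL3. Every siMETTL3 library lay below every siControl library (log2 fold change -0.38, SE 0.056, edgeR FDR 0.000157), at 77.1% of control.

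LAMB1, at chr7:107923799-108003187 on the minus strand, encodes the beta chain shared by the embryonic, neural and vascular laminins. It was at 175, 176 and 176 CPM in siControl and at 121, 125 and 132 CPM in siMETTL3. The siControl libraries differed by hardly more than 1 CPM, and the groups did not overlap (log2 fold change -0.48, SE 0.056, edgeR FDR 2.28e-05). DLD overlaps 9.99% of the LAMB1 span and was lower as well, at 54.0 against 45.5 CPM (-0.24, edgeR FDR 0.0276).

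LAMA4, at chr6:112107931-112254939 on the minus strand, encodes the alpha chain typical of vessels, nerve and muscle. Its values were 18.4, 17.8 and 19.4 CPM in siControl and 11.3, 10.9 and 11.8 CPM in siMETTL3. The groups were far apart beside their spread (log2 fold change -0.71, SE 0.10, edgeR FDR 0.00011), at 61.1% of control. The overlapping gene AL365214.2, over 12.3% of the span, fell from 3.58 to 1.64 CPM (-1.12, edgeR FDR 0.00213).

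LAMC1, the gamma chain of nearly all of these trimers, was at 185, 196 and 195 CPM in siControl and at 181, 176 and 179 CPM in siMETTL3. The groups did not overlap, but the log2 fold change of -0.10 (95% interval -0.22 to 0.01) did not pass the test (edgeR FDR 0.149). Calls of LAMC1 depended on the handling of gene features: it passed with an offset for counted length (-0.18, FDR 0.0146) or for transcript GC content (-0.13, FDR 0.0401). Within a library the LAMB1 to LAMC1 ratio was 0.946, 0.898 and 0.9 in siControl and 0.669, 0.713 and 0.738 in siMETTL3.

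LAMA5, the alpha chain of most adult basement membranes, averaged 95.4 against 96.5 CPM with overlapping groups. Its 95% interval, -0.16 to 0.20, excludes a fall as large as the fitted one of LAMA1 or LAMA4 (edgeR FDR 0.902). LAMB2, the beta chain of synaptic and kidney laminins, averaged 34.0 against 30.9 CPM (-0.14, edgeR FDR 0.252). The muscle chain LAMA2 averaged 8.08 against 7.37 CPM (edgeR FDR 0.493) and the epithelial chain LAMA3 averaged 9.73 against 10.7 CPM (edgeR FDR 0.518). LAMB3, the beta chain that joins LAMA3 in epidermis, averaged 0.726 against 1.146 CPM and was not called (edgeR FDR 0.155). LAMB4 averaged 1.45 against 1.76 CPM (edgeR FDR 0.474). LAMC3 had the highest fitted log2 fold change of all members, 1.11, but from 2 to 24 reads per library and with an FDR of 0.134 in the edgeR test.

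Levels of different genes were set side by side per kilobase of canonical transcript. Reads in introns were counted too and can differ in share from gene to gene, so this order is approximate. ITGB5 led in siControl at 51.8 CPM per kb. ITGB1 (34.4), LAMB1 (31.0), LAMA1 (27.9), LAMC1 (24.2) and ITGAV (17.8 CPM per kb) came next, and no neighbours in this order overlapped. A gap then separated them from LAMA5 (8.35), ITGA9 (8.23) and ITGAE (8.03 CPM per kb), whose libraries overlapped. Below them came LAMB2 (5.98) and ITGA1 (5.67 CPM per kb), which overlapped each other, then ITGA4 (4.85), ITGA6 (3.99), LAMA4 (2.56), ITGB8 (1.90), ITGA11 (1.66) and ITGA2B (1.37 CPM per kb) without overlap, and the other members were under 1 CPM per kb on average. The ITGA1 and ITGAE levels include the reads of PELO and HASPIN. In siMETTL3 ITGB5 again led at 54.0 CPM per kb, but LAMC1 (22.5), LAMB1 (22.3), LAMA1 (21.5) and ITGB1 (21.4 CPM per kb) formed a group in which each overlapped the next. ITGAV, at 8.83 CPM per kb, lay between ITGAE (9.20) and LAMA5 (8.45 CPM per kb) and overlapped both. ITGA11 (2.40) and ITGA2B (2.32 CPM per kb) overlapped each other and now stood above LAMA4 (1.56 CPM per kb). ITGB8 moved from 1.90 to 0.855 CPM per kb.

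**Figure D3:**
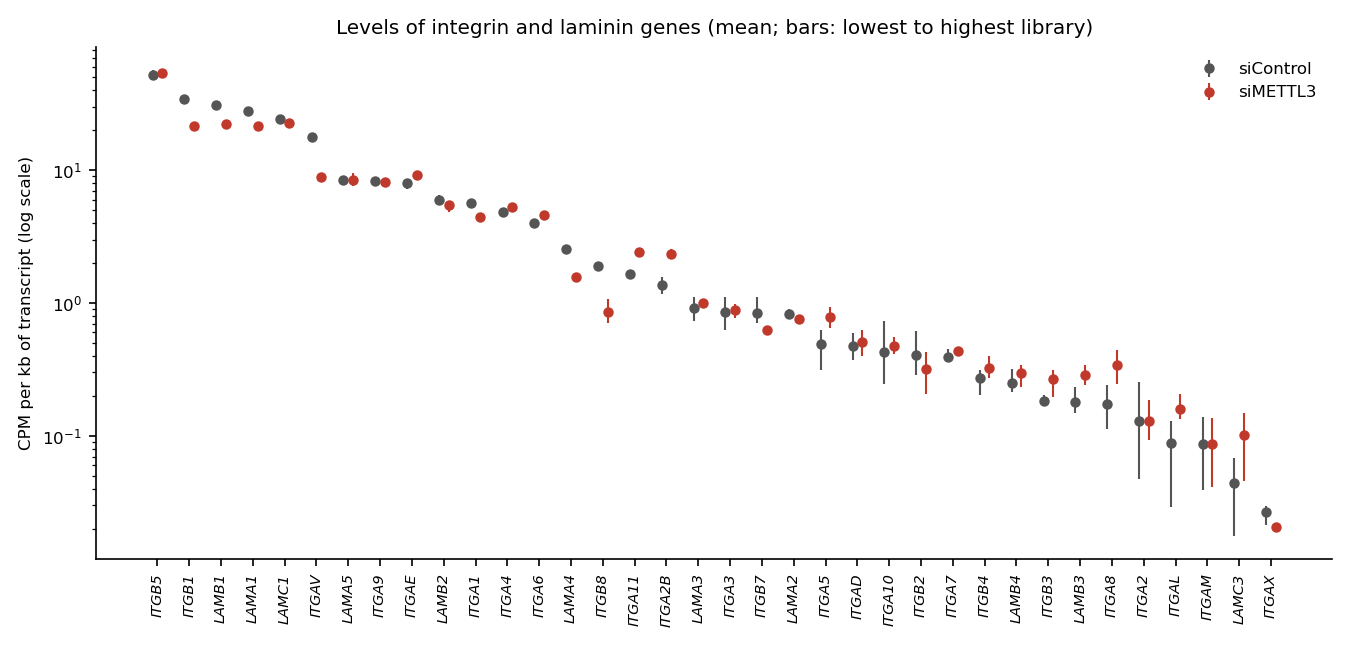
Levels of the members reported here per kb of canonical transcript in siControl and siMETTL3 on a log axis, ordered by the siControl mean, with points for group means and bars from the lowest to the highest library. ITGB5 stays at the top in both groups (51.8 and 54.0 CPM per kb), while ITGAV moves from 17.8 to 8.83; ITGB6 is left out because a library was at 0.

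The chains were then read as the proteins they build, from textbook lists of 24 integrin heterodimers and 14 laminin trimers. Both chains could be tested in 21 of the heterodimers. Both were lower in 3 (ITGAV with ITGB1, ITGAV with ITGB8, and ITGA1 with ITGB1), and 15 had at least 1 lower chain, ITGB1 being the shared one in most. In 2 of them, ITGA11 with ITGB1 and ITGA8 with ITGB1, the alpha chain was higher and the beta chain lower. In 5 neither chain was called. Both chains reached 1 CPM per kb in 8 of the heterodimers. Because ITGB1 and ITGAV recur, these pairs are not independent of each other.

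No laminin trimer had all of its chains lower, and 9 of 14 had at least 1 lower chain. Because the 3 lower chains, LAMA1, LAMA4 and LAMB1, recur, the trimers are not independent of each other either. LAMA1 with LAMB1 and LAMC1, and LAMA4 with LAMB1 and LAMC1, each had lower alpha and beta chains and a gamma chain that was not called. All chains reached 1 CPM per kb in 6 of the 14 trimers. RNA levels of the chains were measured here, and neither protein nor assembled receptor was.

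**Figure D4:**
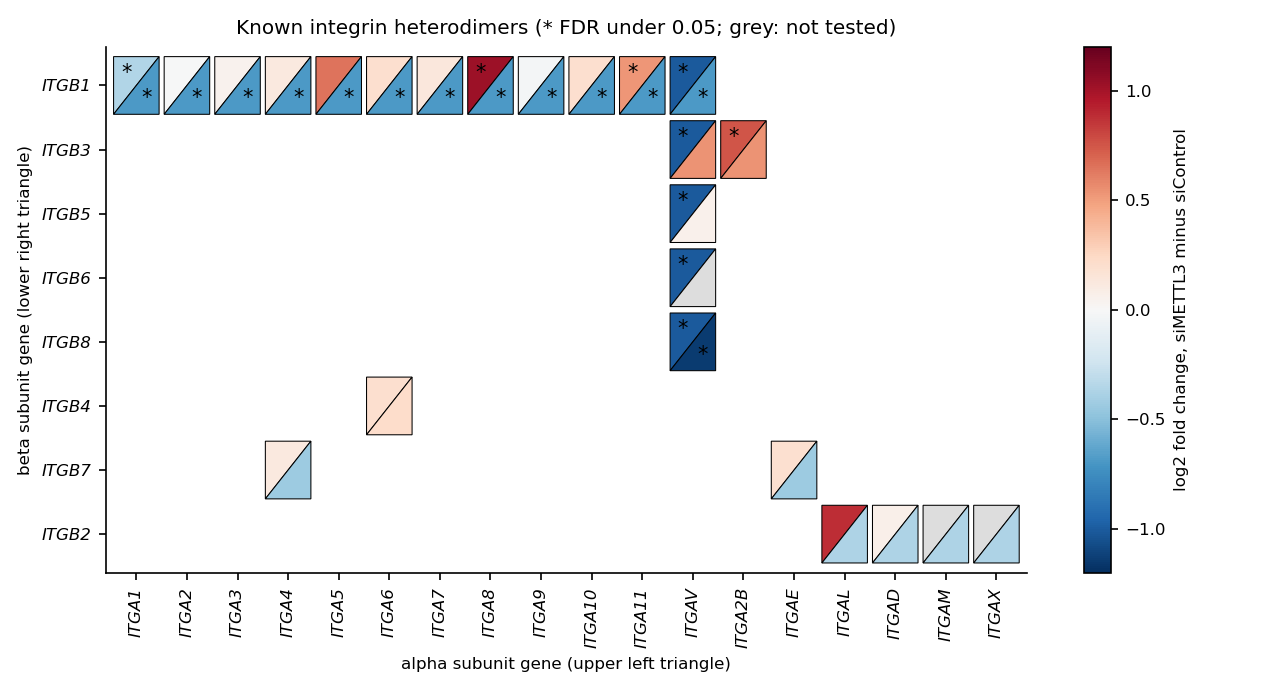
Grid of integrin alpha genes (columns) against beta genes (rows), with a square at each of the 24 known heterodimers; its triangles are coloured by the log2 fold change of the alpha (upper left) and beta (lower right) gene, stars mark FDR under 0.05, and grey was not tested. The 3 pairs with both chains lower sit in the ITGB1 and ITGB8 rows, and the ITGB1 row holds the 2 pairs in which the chains were called in opposite directions.

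The other genes of the pathway were taken from 5 lists. Their called shares stand beside 37.8% of all tested genes, and 43.1% of those at 10 CPM or more, and the lists hold only 15 to 28 tested genes each. Of 28 tested genes that activate integrins or link them to actin, 10 were higher and 4 lower (50.0% called, median log2 fold change 0.25). TLN2, a talin that binds beta tails, averaged 169 ± 2.34 CPM in siControl and 259 ± 2.71 CPM in siMETTL3 (SD, n = 3, log2 fold change 0.62, edgeR FDR 1.34e-06). ACTN1, an actin crosslinker of adhesion sites, averaged 55.0 ± 2.01 against 104 ± 6.45 CPM (0.91, edgeR FDR 2.86e-07). RAP1A, a small GTPase that recruits talin, averaged 66.6 against 98.9 CPM (0.57, edgeR FDR 1.04e-05), and its span overlaps INKA2 and TMIGD3. These 3 genes of the cytoplasmic side were higher while ITGAV, ITGB1 and ITGB8 were lower.

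Among 15 integrin inactivators and binding proteins, 3 were higher and 3 lower (40.0% called, median 0.042). The tetraspanins CD81 (44.2 against 57.4 CPM, 0.37, edgeR FDR 0.0012) and CD63 (62.8 against 49.7 CPM, -0.34, edgeR FDR 0.00111) went opposite ways. CD47, which associates with beta subunits of the vitronectin receptors, fell from 100.1 to 78.9 CPM (-0.34, edgeR FDR 0.000553).

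Of 21 tested integrin ligands other than laminins, 6 were higher and 3 lower (42.9% called, median 0.048). FN1, fibronectin, the ligand of several ITGAV and ITGB1 receptors, fell from 81.3 ± 3.01 to 42.7 ± 3.47 CPM (SD, n = 3, -0.93, edgeR FDR 5.56e-07). MFGE8, an RGD protein of apoptotic cell clearance, fell from 18.9 to 11.96 CPM (-0.67, edgeR FDR 0.00022). LTBP1, which holds latent TGF-beta in the matrix for ITGAV with ITGB8, fell from 33.8 to 21.97 CPM (-0.62, edgeR FDR 0.000288). These are the 3 lower genes of the list. TGFB2 (15.8 against 21.4 CPM, 0.43, edgeR FDR 0.00504) and LRRC32 (3.72 against 6.36 CPM, 0.76, edgeR FDR 0.00507) were among the 6 higher ones. TGFB1 was not called (0.045, edgeR FDR 0.589), and 45.8% of its span overlaps other genes of the table. TGFB1, TGFB2 and LRRC32 were picked after their values had been seen.

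Of 16 tested basement membrane genes other than laminins, 6 were higher and 4 lower (62.5% called, median 0.051). COL18A1, the source of endostatin, rose from 49.4 ± 6.47 to 140.4 ± 13.2 CPM (SD, n = 3, 1.5, edgeR FDR 2.71e-07), and its span overlaps SLC19A1. FBLN2, a fibulin of basement membranes and elastic fibres, rose from 15.2 to 35.4 CPM (1.21, edgeR FDR 3.91e-06). SPARC, a collagen-binding matricellular protein, rose from 53.2 to 90.6 CPM (0.77, edgeR FDR 5.56e-07). AGRN, a proteoglycan that binds the laminin coiled coil, fell from 26.0 to 9.83 CPM (-1.40, edgeR FDR 1.72e-05). The other lower genes were COL4A2 (249.6 against 181.9 CPM, -0.46, edgeR FDR 6.91e-05), COL4A1 (66.9 against 55.1 CPM, -0.28, edgeR FDR 0.00456) and SMOC1 (246.8 against 176.5 CPM, -0.48, edgeR FDR 1.65e-05). HSPG2, SMOC2 and PXDN were the other higher ones. These lower genes, AGRN among them, were picked after their values had been seen.

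Of 15 tested laminin receptors other than integrins, and enzymes that glycosylate them, 2 were higher and 5 lower (46.7% called, median -0.16). DAG1, dystroglycan, rose from 50.9 ± 3.53 to 83.9 ± 2.12 CPM (SD, n = 3, 0.72, edgeR FDR 3.03e-06), while LAMA1 and LAMB1, chains of laminins that it binds, were lower. The alpha chains LAMA2 and LAMA5 were not called (edgeR FDR 0.493 and 0.902). SDC3, a syndecan of neurons, rose from 68.9 to 104 CPM (0.59, edgeR FDR 0.000711). RPSA, a ribosomal protein that also has a laminin receptor form, fell from 840.5 ± 99.6 to 593 ± 18.1 CPM (SD, n = 3, -0.50, edgeR FDR 0.000212). RPSA has processed pseudogenes of near-identical sequence, so its count is uncertain. The other lower genes were SDC1 (-0.29, edgeR FDR 0.00352), SGCE (-0.30, edgeR FDR 0.00135), SGCB (-0.29, edgeR FDR 0.0348) and POMGNT1 (-0.20, edgeR FDR 0.0303).

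**Figure D5:**
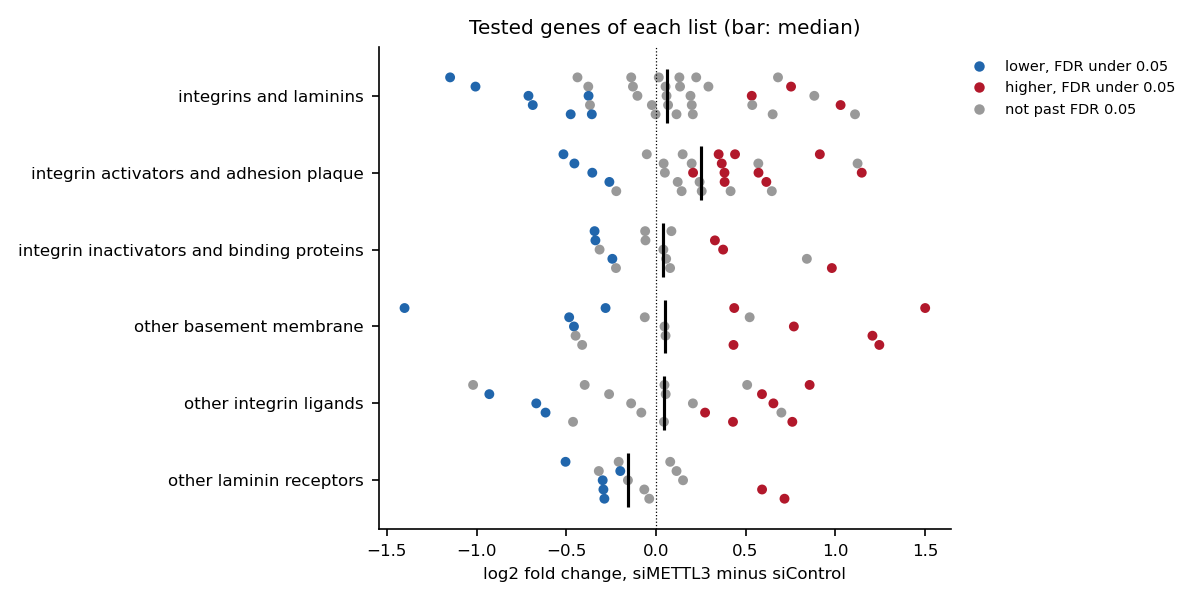
Log2 fold change (siMETTL3 minus siControl) of each tested gene of the members and of the 5 other pathway lists, with a line at each list's median. The medians lie between -0.16 (other laminin receptors) and 0.25 (activators and adhesion plaque), and genes called in both directions appear in every list.

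The members shared features of sequence that the rule did not use. Their canonical transcripts had a median length of 5861 bases and 30 exons, against 3357 bases and 9 exons over the 14591 tested genes with a transcript. All 35 tested members had at least 1 GGACT, with 2 to 16 each, where 91.3% of those genes had 1. Per kb the median was 1.14 in the members and 0.929 over all. It was 0.885 in the lower members, 1.44 in the higher ones and 1.27 in those not called. The lower members also had a low GC content, with a median of 39.5%, where the higher ones had 49.6%, those not called 54.6% and all tested genes 48.6%. These are descriptions of 7, 3 and 25 genes.

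RefSeq promoter sequences (GRCh38.p14, the 250 bases before each RefSeq start) were found for 26 of the 38 members, with 33 promoters in all. A promoter of ITGAV (chr2:186589806-186590055, plus strand) and that of ITGB8 (chr7:20330650-20330899, plus strand) are shown because these partners had the largest falls. The ITGB8 window reaches past the start of the counted span at 20330702, so much of it lies within the gene as counted. ITGAV has a further promoter at chr2:186599955-186600204, which is not shown. Capitals mark the GC box GGGCGG or its reverse complement CCGCCC, a binding sequence of Sp factors.
ITGAV: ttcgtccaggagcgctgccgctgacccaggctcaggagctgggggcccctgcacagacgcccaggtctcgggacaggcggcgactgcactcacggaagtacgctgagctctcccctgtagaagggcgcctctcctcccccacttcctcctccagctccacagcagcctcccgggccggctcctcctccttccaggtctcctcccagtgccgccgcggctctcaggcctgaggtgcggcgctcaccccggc
ITGB8: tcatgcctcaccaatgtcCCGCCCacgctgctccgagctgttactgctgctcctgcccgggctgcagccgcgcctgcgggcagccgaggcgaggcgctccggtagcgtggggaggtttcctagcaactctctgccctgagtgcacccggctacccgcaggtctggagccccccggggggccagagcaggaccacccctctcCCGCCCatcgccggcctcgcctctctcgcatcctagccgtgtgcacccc
The ITGAV window shown holds no GC box and the ITGB8 window holds 2. Searched on both strands, the GC box was in 17 of the 33 member promoters (51.5%), in 3 of the 8 promoters of 6 lower members (37.5%), in 1 of 3 of the higher members (33.3%) and in 12 of 20 of the tested members not called (60.0%). Of the 17323 promoters of tested genes, 60.1% held it. The E-box CACGTG, its own reverse complement and the preferred site of MYC family proteins, was in 1 of 33 member promoters (3.03%), in 0 of 8 of the lower members, in 0 of 3 of the higher members, and in 7.82% of the promoters of tested genes. MYCN itself averaged 3021 ± 134 CPM in siControl and 4638 ± 168 CPM in siMETTL3 (SD, n = 3, log2 fold change 0.62, edgeR FDR 5.17e-06).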

How the data were processed

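The authors deposited 1 table of raw read counts per gene and library, 19923 protein-coding genes each. Per the file headers, counts came from featureCounts v1.5.3 over whole gene spans (introns included) of GENCODE release 33, without strand, single reads rather than pairs, and with a read over several genes counted for each; 33.1% of the genes overlap another. Per the submitters' processing notes, FastQC 0.11.5, Trimmomatic 0.36, HISAT2 2.1.0 and Subread 1.5.3 were used, with GRCh38.

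From these counts, edgeR 4.0.16 (R 4.3.3) was used: filterByExpr kept 15311 genes, TMM scaling, robust quasi-likelihood F-test on all 6 libraries without covariates, Benjamini-Hochberg FDR over all of them, threshold 0.05. CPM values are relative to TMM-scaled library sizes, computed here. Total counts of 15430000 to 21565013 per library set the precision, and the member with the fewest reads among those tested had 2 to 24. Between libraries of a group, chi-square per degree of freedom was 5.57 to 16.15 in siControl and 3.05 to 3.75 in siMETTL3, so none was counted as a duplicate. The pairs with siControl 3, the library with the fewest counts, had the highest values (16.15 and 8.86). The fit was tested on simulated data. Transcript features and motif sites came from canonical transcripts of GENCODE release 44. Promoters came from RefSeq.

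The members and the gene lists were chosen with earlier results of these data known. Counts cover every member, and the values of 1 member are not reported here. Called members are given in every library, and of each of the 5 other pathway lists the 3 genes with the smallest FDR past the threshold and an average log2 CPM of at least 1. Further genes of these lists were named after their values had been seen. Alternatives were RLE, upper-quartile and total-count scaling, no filter or at least 10 counts, no robust option, the replicate block, an offset for counted length, genes without overlaps (members and METTL3 kept), DESeq2 1.42.0, limma-voom (limma 3.58.1) and each library left out. Subtraction of nested genes and an offset for transcript GC were added after the data had been seen.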

Additional observations from a re-analysis of the deposited data

How the results depend on the processing

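The 10 members were called in the same direction under RLE, upper-quartile and total-count scaling, no filter, at least 10 counts in every library, no robust option, the replicate block, genes without overlaps, DESeq2, limma-voom and subtraction of nested genes. Total-count scaling moved the median of all genes most, by 0.023 on the log2 scale. Restricting the fit to genes without overlaps, with the members and METTL3 kept whether or not they overlap, tested 9528 genes and left 1852 genes higher and 1902 lower, against 2849 and 2937, since fewer genes were tested. With an offset for transcript GC content, added after the data had been seen, 5 members were higher (ITGA4 at 0.19, FDR 0.0428, and ITGA6 at 0.25, FDR 0.0221, joined) and 9 were lower (LAMB2 at -0.21, FDR 0.0462, and LAMC1 at -0.13, FDR 0.0401, joined); the cause was not tested. Leaving out 1 library in turn gave 2 to 5 members higher, 7 lower each time, 2091 to 3178 genes higher and 2119 to 3216 lower. The 5 came without siControl 3 and added ITGA10 and ITGA6. ITGA8 was the called member that lost its call when a library was left out.

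Libraries with the same replicate number deviated together only weakly (correlations 0.040, 0.049 and 0.067), so the numbers were not taken to pair them, although every library correlated best with its own number, which is a hint from the data and not from the design. With the replicate block, 3047 genes were higher and 3119 lower, METTL3 stood at -0.71, and 3 members were higher and 7 lower.

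Reversals of sign were all in members that were not called, most of them with few reads. ITGA2 (-0.0020) became 0.013 with upper-quartile scaling, 0.020 with total counts, 0.098 with the replicate block, 0.0092 in DESeq2, 0.29 in voom and 0.060 with the GC offset. ITGA9 became 0.0002 with total counts. ITGB5 became -0.016 with the length offset and -0.0018 with the GC offset. LAMA5 became -0.0012 without overlapping genes, -0.036 with the length offset and -0.017 with the GC offset, and ITGA3 became -0.011 with the GC offset. With each library left out in turn, ITGA2 ranged from -0.44 to 1.02, ITGA3 from -0.11 to 0.28, ITGA10 from -0.085 to 0.80, ITGA9 from -0.052 to 0.0088, ITGAD from -0.11 to 0.26, ITGB2 from -0.63 to 0.073 and LAMA5 from -0.076 to 0.091. Members under 10 CPM have wide intervals, so a missing call there does not show that a gene was unchanged.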
